A study of Mus musculus with 6 samples.

Results

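Sox10, Erbb3, S100b, Mbp and Pmp22 were chosen by name as markers of Schwann cells and related glia. No rule on a measured value was used, but earlier results of these data were known. These 5 genes were among the 19060 genes of the deposited count table, and all 5 were among the 15826 genes that passed the filter on low counts. Bulk RNA sequencing of the proximal end of the mouse incisor was used to ask what changes when Fgfr1, an FGF receptor, is deleted from Gli1-expressing mesenchymal stem cells. Mice were 1 month old, and incisors were collected 1 week after tamoxifen. The 3 control samples came from Fgfr1fl/fl mice, which carry the floxed Fgfr1 alleles without Cre and which the genotype label calls wild type. The 3 mutant samples came from Gli1-Cre;Fgfr1fl/fl mice, the driver being the tamoxifen-inducible Gli1CreER. Recombination is restricted to cells that express Gli1 and their progeny, so other cells of the tissue are not targeted directly. The labels give no animal for each library, and the p-values then measure the spread between these samples, which may in part be technical.

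Schwann cells ensheath the peripheral axons that enter the tooth with its nerve and vessels, and in the incisor Schwann cell lineage cells lie along the nerve in the mesenchyme. SOX10 maintains the identity of the lineage, ERBB3 receives neuregulin from the axon, and EGR2 switches on the myelin program that yields proteins such as MBP and PMP22. Schwann cells that do not myelinate hold bundles of small axons and express S100B and SOX10 without compact myelin.

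The control libraries held 31060222 to 32712448 counts and the mutant libraries 5276557 to 11819576, so that the depth of each group did not overlap with that of the other. Of the genes in the table, 3.83% to 3.96% had 0 counts in a control library and 17.1% to 30.3% in a mutant library. For genes with few reads, genotype therefore cannot be told apart from what else sets the mutant libraries apart as a set, depth included. Thinning the controls to the mean mutant depth, as given below, evens out the mean number of reads only. Levels are given as CPM, counts relative to a library total that was scaled by its upper quartile, and a change is the log2 ratio of mutant to control fitted by edgeR, with its standard error (SE). Fgfr1, the targeted gene, had a level of 529, 924 and 434 CPM in the controls and 148, 318 and 262 CPM in the mutants. Its level was lower in every mutant than in every control, at a log2 change of -1.37 ± 0.40 (SE, n = 3 per group) with an adjusted p of 0.0881 (the quasi-likelihood test of edgeR, Benjamini-Hochberg adjustment over all genes tested).

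None of the 5 genes differed between genotypes beyond the spread between libraries. At an adjusted p under 0.05, 0 of the 5 were called, against 6.79% of all genes tested. By the looser rule of the study, an unadjusted p under 0.05 with a change over 1.5-fold, 0 of the 5 were called, against 19.8% of all genes. In each of the 5 genes the control and mutant samples overlapped, whereas for 30.4% of all genes tested they did not. Sox10 and S100b were at 0 in at least 1 mutant library, as were 25% of all genes tested. In bulk tissue, fewer Schwann cells and less RNA per Schwann cell cannot be told apart.

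**Figure D1:**
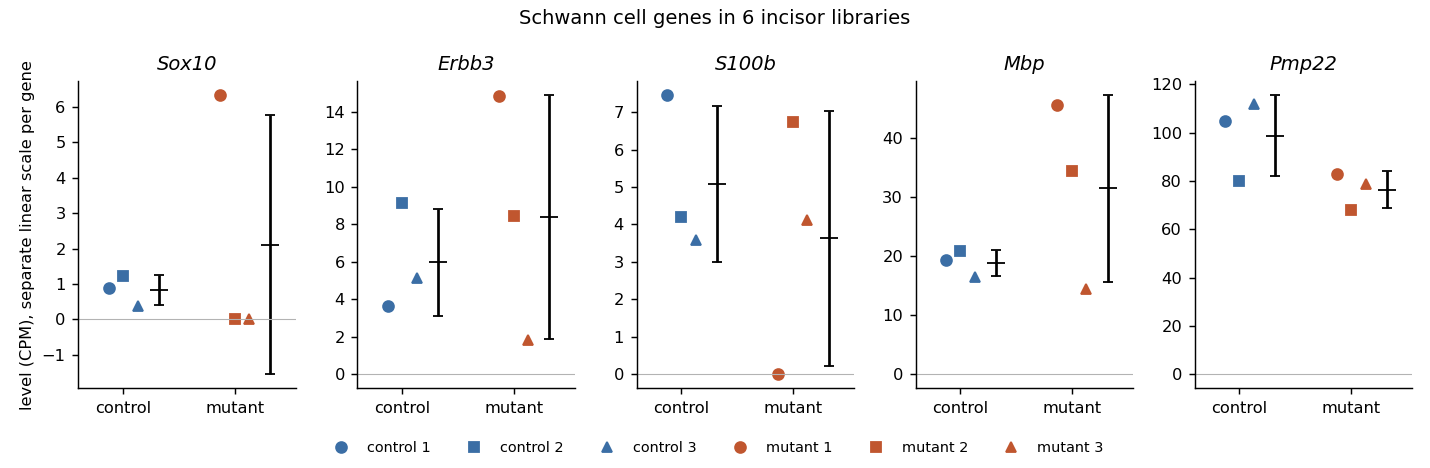
Level in CPM (vertical axis, a separate linear scale for each gene) of the 5 genes in each of the 3 control and 3 mutant libraries. Points are libraries, and the bar beside them is the mean ± SD of the group (n = 3). Mutant 1 is the highest of all libraries for Sox10, Erbb3 and Mbp and holds no S100b count, while Pmp22 varies least.

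Sox10, the SRY-box transcription factor required throughout the Schwann cell lineage, was the gene with the fewest reads. Its annotated span in GRCm38 is chr15:79154908-79165240 on the minus strand. The controls held 30, 45 and 13 counts, a level of 0.874, 1.24 and 0.376 CPM. The mutants held 29, 0 and 0 counts, a level of 6.33, 0 and 0 CPM. Mutant 1, the shallowest library, thus had the highest Sox10 level of all 6, and the other mutants had none, below every control. The fitted change was 1.30 ± 1.92 (log2, SE, n = 3 per group, adjusted p = 0.789 in edgeR), a value set by 1 library.

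Leaving out mutant 1 turned the fitted Sox10 change to -7.41 (log2), with an adjusted p of 0.0589 in edgeR. Because both remaining mutants were at 0, that fitted value is no bound. Set against 3 counts over those mutants, a level of 0.139 CPM, the mean control level of 0.829 CPM was at least 5.98-fold higher, a bound that covers counting error only. Control libraries thinned to the mean mutant depth still held 10, 16 and 5 Sox10 counts. Zeros at this level were common in the mutants: of 987 genes tested with a mean control level of 0.5 to 1 CPM, 83.1% were at 0 in at least 1 mutant, compared with 2.74% in at least 1 thinned control. Of those 987 genes, 22.1% were at 0 in both mutant 2 and mutant 3, whatever their count in mutant 1. Those that also held counts in mutant 1, as Sox10 did, were 5.37%. The sign of the Sox10 change was also negative with limma voom (-1.54) and with the replicate number as a block (-2.95).

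Erbb3 encodes the neuregulin receptor that pairs with ERBB2 in Schwann cells, and it lies at chr10:128567523-128589652 on the minus strand. Its level was 3.64, 9.15 and 5.11 CPM in the controls. In the mutants it was 14.8, 8.45 and 1.81 CPM. The mutants thus held both the highest and the lowest library, with 68, 99 and 18 counts behind them, and spanned the control range. The change was 0.48 ± 0.88 (log2, SE, n = 3 per group, adjusted p = 0.836 in edgeR), and it was -0.23 without mutant 1 and 1.22 after correcting for the length and GC content of transcripts.

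S100b encodes a calcium-binding protein found in myelinating and non-myelinating Schwann cells, and also in chondrocytes and adipocytes. It lies at chr10:76253853-76261159 on the plus strand. Its level was 7.46, 4.21 and 3.58 CPM in the controls and 0, 6.75 and 4.13 CPM in the mutants. Mutant 2 and mutant 3 lay within the control range, and mutant 1 had 0 counts, where 3 counts would have been 0.655 CPM. The change was -0.47 ± 1.29 (log2, SE, n = 3 per group, adjusted p = 0.898 in edgeR), and 0.084 without mutant 1. Of 4351 genes tested with a mean control level of 5 to 20 CPM, 17.3% were at 0 in mutant 1. Mutant 1 was therefore the highest library for Sox10 and Erbb3 and the lowest for S100b.

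Mbp encodes myelin basic protein, which compacts the cytoplasmic faces of the myelin sheath, and lies at chr18:82475146-82585637 on the plus strand. Its level was 19.3, 20.8 and 16.5 CPM in the controls. In the mutants it was 45.6, 34.3 and 14.4 CPM. Mutant 1 and mutant 2 were above every control, and mutant 3 was below every control. The mean ± SD was 18.9 ± 2.19 CPM in the controls and 31.5 ± 15.8 CPM in the mutants (n = 3 each), a change of 0.73 ± 0.44 (log2, SE, adjusted p = 0.422 in edgeR). The direction was positive under all 16 alternatives, from 0.35 without mutant 1 to 1.31 with the correction for length and GC content, and no adjusted p fell below 0.0885. The gene is also transcribed outside myelinating glia from an upstream start, and the gene-level count pools those transcripts with the myelin isoforms.

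Pmp22, at chr11:63128982-63159547 on the plus strand, encodes peripheral myelin protein 22, a membrane protein of compact myelin that many epithelial and mesenchymal cells also express. Its level was 104.7, 79.8 and 111.8 CPM in the controls and 82.7, 67.8 and 78.6 CPM in the mutants. Mutant 2 and mutant 3 were below every control, and mutant 1 lay between control 2 and control 1. The change was -0.37 ± 0.23 (log2, SE, n = 3 per group, adjusted p = 0.421 in edgeR). It was negative under all 16 alternatives, from -0.64 with scaling by total counts alone to -0.27 without control 3. With total counts alone the median of all genes also moved, from -0.04 to -0.30, and the lowest adjusted p of any setting, 0.108, came from that scaling.

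**Figure D2:**
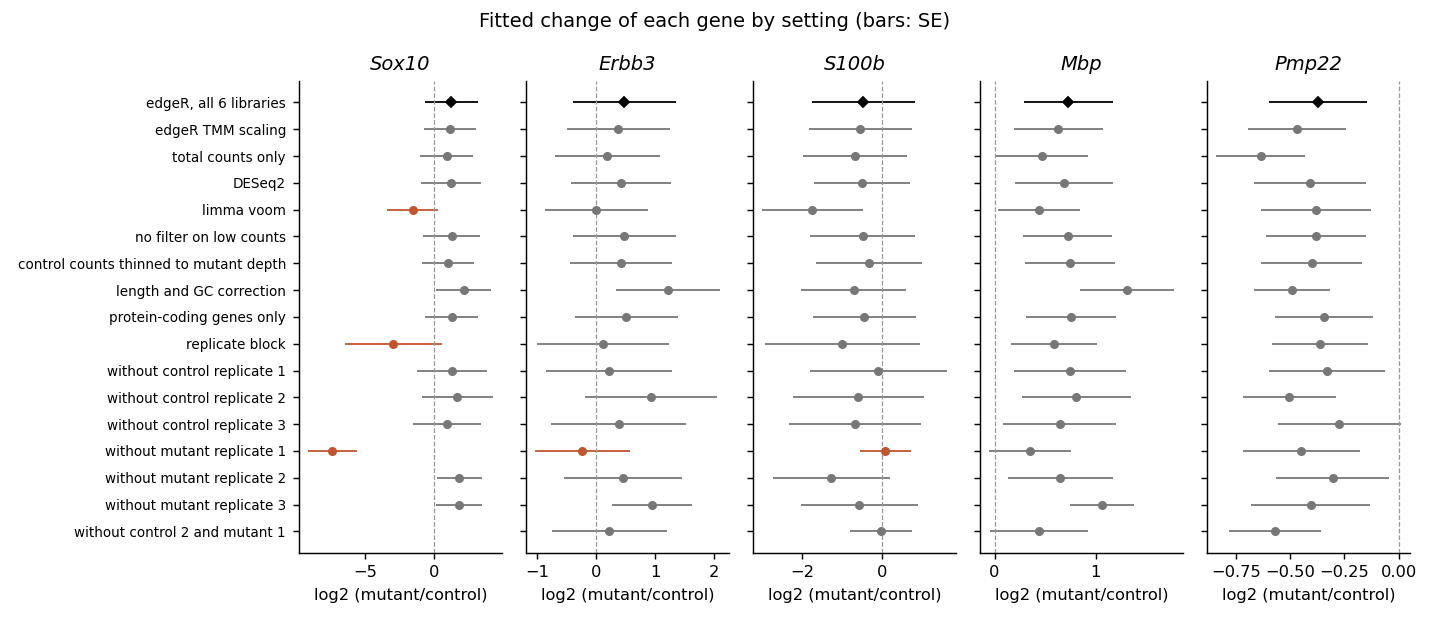
Fitted log2 ratio of mutant to control (horizontal axis, a separate scale for each gene) with its SE, for the reported fit (black diamond) and each alternative (circles). Orange marks the settings in which the sign is opposite to the reported one, which are 3 for Sox10, 1 for Erbb3, 1 for S100b and none for Mbp and Pmp22; Sox10 was not tested without control 2 and mutant 1.

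Pmp22 is transcribed from more than 1 start, and the gene-level count sums them. The 250 bases upstream of the first and the third RefSeq start are printed here with those of S100b, because they differ in base composition and show part of what the count pools. They are read from RefSeq's GRCm38.p6 promoters, 5′ to 3′ on the plus strand, with CpG dinucleotides in capitals.
S100b, chr10:76253586-76253835: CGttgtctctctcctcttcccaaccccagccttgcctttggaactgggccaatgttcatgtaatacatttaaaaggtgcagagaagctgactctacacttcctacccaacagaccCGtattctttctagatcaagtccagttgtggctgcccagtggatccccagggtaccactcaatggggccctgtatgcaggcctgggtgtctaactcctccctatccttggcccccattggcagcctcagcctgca
Pmp22 start 1, chr11:63128732-63128981: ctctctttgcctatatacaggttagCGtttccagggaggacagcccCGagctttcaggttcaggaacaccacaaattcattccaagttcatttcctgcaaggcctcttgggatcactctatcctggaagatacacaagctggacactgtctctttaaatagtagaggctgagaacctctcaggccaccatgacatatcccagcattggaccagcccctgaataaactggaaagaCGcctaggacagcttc
Pmp22 start 3, chr11:63132319-63132568: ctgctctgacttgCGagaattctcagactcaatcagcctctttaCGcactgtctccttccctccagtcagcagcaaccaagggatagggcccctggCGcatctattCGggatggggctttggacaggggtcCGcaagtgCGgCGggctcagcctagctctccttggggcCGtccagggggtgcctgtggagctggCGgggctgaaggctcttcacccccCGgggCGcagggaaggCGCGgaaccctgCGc

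The first Pmp22 window held 3 CpG at a GC content of 48.8%, and the third held 14 CpG at 64.8%. The second and the fourth, not printed, held 14 CpG at 61.2% and 27 CpG at 73.6%. The S100b window held 2 CpG at 53.6%. Over all 32851 RefSeq promoters, the median was 6 CpG and 52.4% in windows of the same length. The SOX core motifs ACAAAG and ACAATG and the EGR core motif GTGGGCG were searched on both strands in the 250 bases before each start. None of them was found in the S100b promoter or in the 4 Pmp22 promoters, which says only that these letters are not in these windows. Of all promoters, 16.5%, 10.7% and 7.02% held them in the same 250 bases, in that order. Sox10, Mbp and Erbb3 had no entry in the promoter table.

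Per kilobase of annotated exon, Pmp22 was the highest of the 5 genes in the controls, at a level of 42.0 ± 7.13 CPM per kb (SD, n = 3). S100b followed at 3.42 ± 1.40, Mbp at 2.23 ± 0.259, Erbb3 at 0.992 ± 0.474 and Sox10 at 0.272 ± 0.142 CPM per kb. The control libraries of S100b and Mbp overlapped in level, and those of the other neighbours in this order did not. With the longest coding transcript as the length, Mbp stood at 3.94 CPM per kb, above S100b, and Pmp22 at 54.2 CPM per kb. In the mutants only Pmp22, at 28.8 to 35.1 CPM per kb, was apart from the other genes, since Mbp ranged from 1.70 to 5.39, S100b from 0 to 4.55, Erbb3 from 0.302 to 2.47 and Sox10 from 0 to 2.07 CPM per kb.

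Genes linked to the wider Schwann cell program were described over 66 genes in 4 lists, of which 62 were in the table and 51 were tested. Some, such as Cd9 and Itga6, are also expressed by other cells. Counts and medians over these lists are therefore not values of Schwann cells alone. At an adjusted p under 0.05, 4 of the 51 were lower in the mutants and 0 were higher, beside 3.06% lower and 3.72% higher of all genes tested. The 4 were Dhh, Egr2, Lgi4 and Artn, and each had 0 counts in every mutant library, as did 2.39% of all genes tested. They passed the filter on low counts through the controls alone, while 6 genes of the same lists that were likewise at 0 in every mutant, with fewer control counts, did not pass it and were not tested, so the count of 4 depends on that filter. By the study's looser rule, 5 of the 51 were lower and 1 was higher, beside 8.92% lower and 10.9% higher of all genes. The median change of the 51 was 0.024 (log2), with 26 positive and 25 negative, next to -0.04 over all genes tested. The sign of that median depended on the setting, as did the number of genes tested. It was negative with TMM scaling (-0.08) and with total counts alone (-0.26), where the median of all genes was -0.13 and -0.30. With DESeq2, limma voom and the replicate block it was -0.14, -0.39 and -0.35, beside -0.06, -0.29 and -0.27 over all genes. No filter, thinned controls, and leaving out control 1, control 3 or a single mutant also made it negative. It stayed positive with the length and GC correction (0.25) and protein-coding genes only (0.05). Without control 2 it was 0.14, and without control 2 and mutant 1 it was 0.02. With total counts alone, 41.0% of all genes called by the adjusted p were higher in the mutants, against 54.8% with the upper quartile, and by the study's rule 34.9% against 55.0%.

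Among the myelin genes, 13 of 18 were tested, and the median change was -0.064 (log2). By the adjusted p 1 fell and 0 rose, beside 3.06% lower and 3.72% higher of all genes tested. Dhh, the hedgehog ligand that Schwann cells send to the nerve sheath, was the one that fell, from a level of 1.40, 1.48 and 0.809 CPM in the controls to 0 in every mutant. Set against 3 counts over the mutant group, its mean control level was at least 10.8-fold higher (adjusted p = 0.0464 in edgeR). This bound, like those given below for other genes at 0 in every mutant, covers counting error only. Like Egr2, Lgi4 and Artn below, Dhh passed the filter on low counts through the controls alone.

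Several other myelin genes were at 0 in mutant 1, as S100b was. Prx, which encodes periaxin, had a level of 4.97 to 7.48 CPM in the controls and 0, 9.39 and 5.84 CPM in the mutants. Ncmap, a protein of non-compact myelin, had a level of 8.94, 6.57 and 5.14 CPM in the controls and 0, 2.90 and 3.12 CPM in the mutants. All 3 mutants were below all controls for Ncmap, yet its change of -1.75 ± 1.23 (log2, SE, n = 3 per group) had an adjusted p of 0.506 in edgeR. Gldn, the gliomedin of the node of Ranvier, and Cldn19 were also at 0 in mutant 1 and within or near the control range in mutant 2 and mutant 3. Myelin genes in mutant 1 thus ranged from 0 to the highest level of any library.

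Cd9, a tetraspanin of the myelin sheath that is also abundant on epithelial and other cells, was higher in all 3 mutants. Its level was 215, 117 and 205 CPM in the controls and 609, 340 and 419 CPM in the mutants. The change of 1.35 ± 0.34 (log2, SE, n = 3 per group) passed the study's rule, with an adjusted p of 0.0545 in edgeR. It was 0.59 with the correction for length and GC content. By the adjusted p, Cd9 was called higher with DESeq2 (0.0018), limma voom (0.0294) and edgeR with the replicate block (0.0339), and in no other setting. Cnp, which encodes an enzyme of glial membranes, and Drp2, a partner of periaxin, had changes of -0.06 and 0.22 (log2). Mal had one of 0.05. The control and mutant libraries of these genes overlapped. Mag was at 0 in every mutant and at 0.524, 0.330 and 0.260 CPM in the controls, and was too low to be tested, as were Pmp2, Fa2h and Ugt8a. Gjb1 has no column in the table used here.

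Among the transcription factors, 10 of 12 were tested, and the median change was -0.024 (log2). By the adjusted p 1 fell and 0 rose, beside 3.06% lower and 3.72% higher of all genes tested. Egr2, the zinc finger factor that drives myelination together with SOX10, was the one that fell, from a level of 1.31, 0.989 and 0.896 CPM in the controls to 0 in every mutant. Its mean control level was at least 9.31-fold above 3 counts over the mutant group (adjusted p = 0.0464 in edgeR). Its corepressor partners Nab1 and Nab2 had changes of 0.47 and -0.51 (log2), at adjusted p of 0.331 and 0.551 in edgeR. Nab1 was higher in every mutant, at 62.9, 66.3 and 64.2 CPM against 37.6, 46.3 and 56.1 CPM. Sox2, which marks immature Schwann cells as well as dental epithelial progenitors, was at 0, 0 and 5.54 CPM in the mutants and at 1.08, 1.48 and 2.40 CPM in the controls. Jun, a factor of the repair Schwann cell, had a change of -0.55, Zeb2 0.72, Tead1 0.16, Yy1 -0.32 and Nfatc4 -0.21 (log2), none of which passed the adjusted p. Pou3f1 and Pou3f2 have no column in the table used here.

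In the neuregulin and ERBB group, 10 of 12 genes were tested, and the median change was -0.12 (log2). By the adjusted p 1 fell and 0 rose, beside 3.06% lower and 3.72% higher of all genes tested. Lgi4, a protein secreted by Schwann cells that acts through ADAM22 on axons and glia, was the one that fell. Its level was 3.67, 4.59 and 2.89 CPM in the controls, on 100 to 167 counts a library, and 0 in every mutant. Its mean control level was at least 32.5-fold above 3 counts over the mutant group (adjusted p = 0.0464 in edgeR). Its receptor gene Adam22 overlapped between groups, at 9.99, 14.5 and 9.62 CPM in the controls and 17.7, 15.5 and 10.8 CPM in the mutants. Erbb2, the signalling partner of ERBB3, had a level of 35.7, 49.2 and 42.6 CPM in the controls and 69.4, 38.2 and 22.7 CPM in the mutants, with the same order of mutant libraries as Erbb3. Its change was 0.02 ± 0.40 (log2, SE, n = 3 per group, adjusted p = 0.984 in edgeR).

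The ligand gene Nrg1 was at 0 in every mutant and at 0.175, 0.522 and 0.636 CPM in the controls, too low to be tested, and Nrg2 was likewise at 0 in every mutant. Ptpn11, the phosphatase SHP2 of this pathway, and Bace1, a protease that cleaves neuregulin, were each lower in all 3 mutants, with changes of -0.47 and -0.55 (log2) at adjusted p of 0.277 and 0.337 in edgeR. Adam17, Adgrg6, Egfr and Erbb4 had changes of -0.27, 0.06, 0.07 and -0.51 (log2), and their groups overlapped.

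Of the genes of immature, non-myelinating and repair Schwann cells, 18 of 24 were tested, and the median change was 0.048 (log2). By the adjusted p 1 fell and 0 rose, beside 3.06% lower and 3.72% higher of all genes tested. Artn, a ligand of the GDNF family, fell from a level of 0.466, 1.07 and 1.44 CPM to 0 in every mutant, on 16 to 50 control counts, at least 8.69-fold (adjusted p = 0.0486 in edgeR). Ngfr, the p75 neurotrophin receptor of non-myelinating and repair cells, had a level of 25.9, 29.3 and 31.8 CPM in the controls and 7.20, 35.2 and 24.7 CPM in the mutants. It overlapped between groups, with a change of -0.36 ± 0.52 (log2, SE, n = 3 per group, adjusted p = 0.780 in edgeR). Itga6, a laminin receptor subunit of Schwann cells and of basal epithelium, passed the study's rule at 96.3, 175 and 203 CPM in the controls and 86.4, 83.0 and 86.1 CPM in the mutants, with an adjusted p of 0.133 in edgeR.

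**Figure D3:**
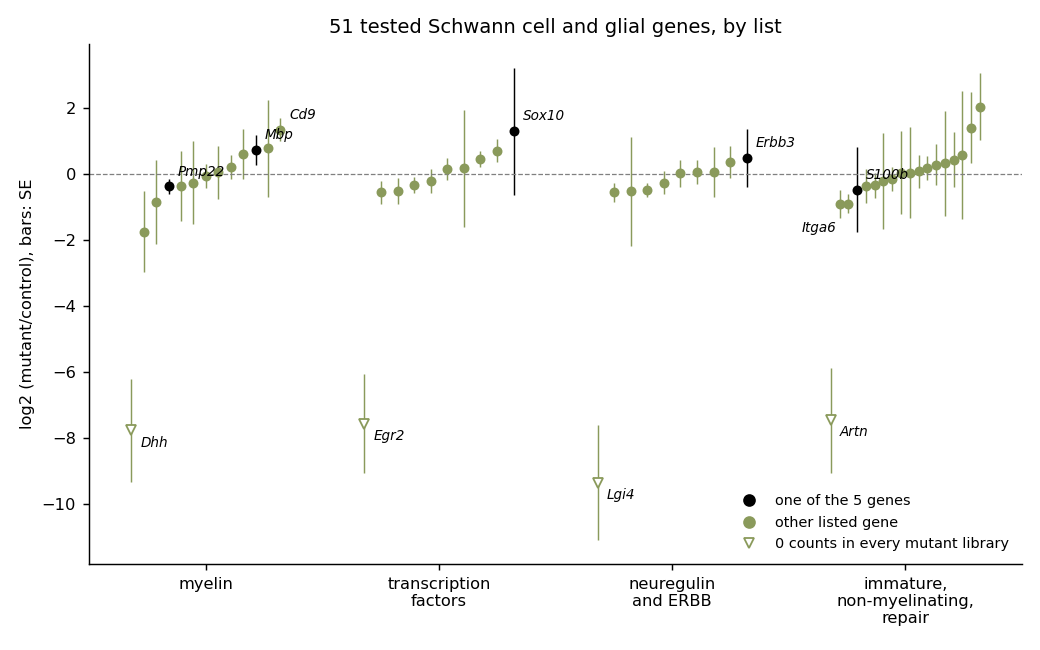
Fitted log2 ratio of mutant to control (vertical axis) with its SE for the 51 tested Schwann cell and glial genes, in 4 lists. Black points are the 5 genes chosen by name, and open triangles are genes with 0 counts in every mutant library, whose fitted value is no bound. Dhh, Egr2, Lgi4 and Artn lie far below the others, which range from -1.75 for Ncmap to 2.04 for Fabp7.

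The 4 genes that fell all rest on a comparison of low control counts with 0. Their fold bounds cover counting error only, and zeros were more frequent in the mutants than in thinned controls. Of genes tested with a mean control level of 1 to 5 CPM, 67.2% were at 0 in at least 1 mutant. In at least 1 thinned control the share was 0.652%. Of all 485 genes called lower by the adjusted p, 365 were at 0 in every mutant. Among 2912 genes tested with a mean control level of 1 to 5 CPM, where Dhh, Egr2 and Lgi4 lie, 7.04% were at 0 in every mutant, and from 0.5 to 1 CPM, where Artn lies, the share was 16.7%. No gene of either range was at 0 in every thinned control. With the controls thinned to mutant depth, Lgi4 had an adjusted p of 0.0605, and Dhh, Egr2 and Artn were no longer tested. With DESeq2, Lgi4 alone of the 4 was called (adjusted p = 5.49e-04), and with limma voom all 4 were, at adjusted p of 0.0025 to 0.045. All 4 calls were lost with the length and GC correction (adjusted p of 0.0762 to 0.0866 in edgeR), with protein-coding genes only (0.0912 to 0.0921), with no filter (0.094 to 0.105) and with the replicate block (0.191 to 0.352). With any 1 library left out they were lost or not tested, except Lgi4 without mutant 1 (0.0431).

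Skeletal muscle genes differed widely between libraries of the same group. The summed level of 8 skeletal muscle genes was 10.3, 2710 and 29.3 CPM in the controls and 5965, 141 and 947 CPM in the mutants, and Myh4 in mutant 3 was the only one of the 8 at 0. Acta1, the skeletal muscle actin, ranged from 2.33 to 883 CPM in the controls and from 41.2 to 1662 CPM in the mutants, and Ckm, the muscle creatine kinase, from 0.787 to 391 and from 35.9 to 906 CPM. Control 2 and mutant 1, the libraries with the most muscle signal in their groups, were also the highest in their groups for Sox10, Erbb3 and Mbp. Pmp22 and S100b did not share this order. For Pmp22, control 2 was the lowest control (79.8 CPM) and mutant 1 the highest mutant (82.7 CPM). For S100b, control 2 lay between the other controls (4.21 CPM) and mutant 1 was at 0. Without both libraries, an alternative chosen after seeing the data, the change was 0.44 for Mbp, 0.23 for Erbb3, -0.57 for Pmp22 and -0.02 for S100b (log2), and Sox10 was not tested. None of these was called, and of the 50 Schwann cell and glial genes then tested 0 were called by the adjusted p and 8 by the study's rule, against 0.897% and 20.9% of all genes tested in that setting. The part of muscle-associated tissue in the levels of these genes was not tested.

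**Figure D4:**
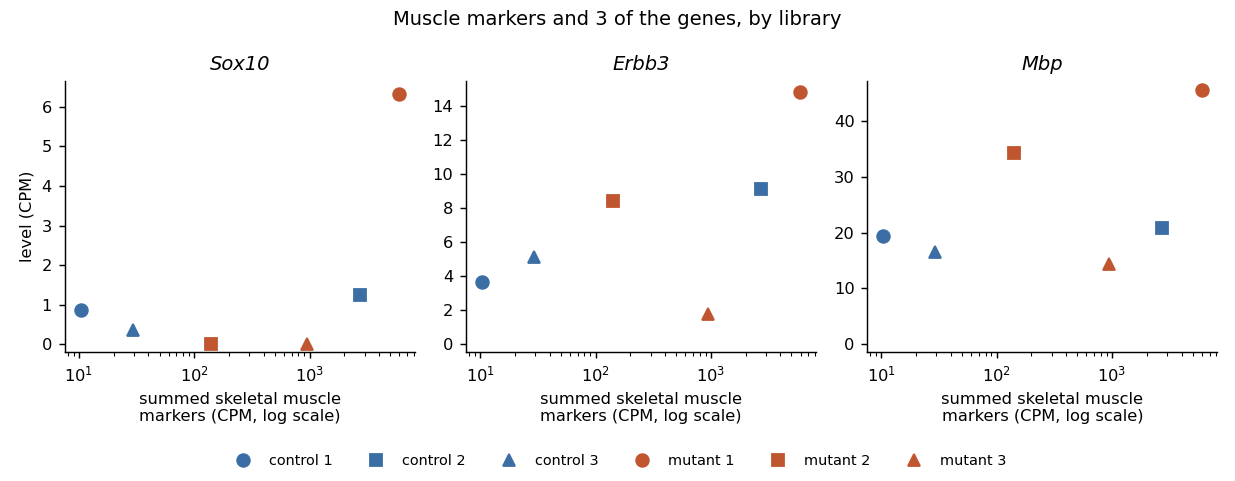
Level of Sox10, Erbb3 and Mbp (vertical axes, CPM) against the summed level of 8 skeletal muscle genes (horizontal axis, CPM, log scale) in each of the 6 libraries. Mutant 1 is at the far right and at the top for all 3 genes, whereas mutant 3, with the next highest muscle sum of the mutants, is at or near the bottom.

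Of 15 axon and sensory neuron genes, 9 were in the table, 6 were tested, 2 were lower and 0 higher by the adjusted p, and the summed level of the 9 was 69.3 to 146 CPM in the controls and 58.2 to 86.2 CPM in the mutants. Tubb3, the neuronal tubulin, had a level of 68.7, 53.2 and 115 CPM in the controls and 44.5, 26.9 and 61.2 CPM in the mutants. Calca and Avil, which mark sensory neurons, were at 0 in every mutant and were called lower at adjusted p of 0.0466 and 0.0464 in edgeR, from mean control levels of 0.668 and 2.28 CPM. Both passed the filter on low counts through the controls alone. Of all genes tested, 3.06% were called lower and 2.39% were at 0 in every mutant. At control levels of 0.5 to 1 CPM, as for Calca, 16.7% were at 0 in every mutant. From 1 to 5 CPM, as for Avil, the share was 7.04%. Stmn2 and Tac1, named after their values were seen, had positive changes of 1.30 and 0.38 (log2) at adjusted p of 0.605 and 0.916 in edgeR. Stmn2 was at 15.9, 10.5 and 0.403 CPM in the mutants and 2.75 to 4.28 CPM in the controls, and Tac1 was at 0, 12.7 and 16.7 CPM in the mutants and 10.95, 3.49 and 8.35 CPM in the controls.

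Oligodendrocytes, which also express both Mbp and Sox10, are absent from teeth. Of 6 oligodendrocyte genes Sox8 alone was in the table, at 0.636 to 1.13 CPM in the controls and 0 in every mutant. Of 7 melanocyte genes, which share Sox10, 4 were in the table, and their sum was 60.6 to 129 CPM in the controls and 34.7 to 89.5 CPM in the mutants. The defining enzyme gene Dct was at 6.84 to 16.1 and 5.89 to 13.1 CPM, and Pmel was at 0 in every mutant. The 6 cartilage genes in the table summed to 491 to 1617 CPM in the controls and 513 to 632 CPM in the mutants, with Col2a1 at 0 in mutant 1 and Acan, the aggrecan gene, at 1.96 to 10.6 CPM and 3.59 to 10.5 CPM. The 3 adipocyte genes in the table summed to 5.32 to 9.67 CPM in the controls and 6.15 to 37.8 CPM in the mutants, with Adipoq and Pparg at 0 in every mutant. The mutant sum was all Fabp4, a fatty acid-binding protein gene, at 37.8, 6.15 and 22.4 CPM against 5.33, 7.72 and 3.67 CPM in the controls, a change of 1.98 (log2) past the study's rule with an adjusted p of 0.157 in edgeR.

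The 9 dental epithelium genes summed to 85343 to 121041 CPM in the controls and 31650 to 69840 CPM in the mutants, which did not overlap. Most of the sum came from the enamel matrix genes Amelx and Ambn, named here after their values were seen. None of the 9 was called by either rule, 7 changes were negative and 2 were positive. Krt14 and Krt5, the basal keratins, had changes of -0.64 and -0.63 (log2), and Epcam, also named after its values were seen, had one of 0.58.

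The 8 dental mesenchyme and odontoblast genes summed to 26850 to 69796 CPM in the controls and 24112 to 30012 CPM in the mutants. Col1a1 and Col1a2, the type I collagen genes, had changes of -0.65 and -1.12 (log2), and Col1a2 passed the study's rule with an adjusted p of 0.190 in edgeR. The 7 macrophage genes summed to 148 to 426 CPM and 329 to 403 CPM, with changes of 0.34 for Cd68 and -0.81 for Csf1r (log2), and none was called by either rule. The 7 erythroid genes summed to 380 to 834 CPM and 926 to 2560 CPM. The globin genes moved in opposite directions: Hba-a1 fell by 2.04 on the log2 scale (adjusted p = 0.046 in edgeR), whereas Hba-a2 and Hbb-bs had changes of 1.36 and 1.81, past the study's rule alone. Hba-a1 and Hba-a2 are near-identical copies whose reads the counting may split, so their separate values are uncertain. How far these compositions bear on the Schwann cell values was not tested.

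For each of the 5 genes, the profiles most like it were sought among 9707 genes with a mean of at least 10 CPM, by the root mean square (RMS) difference of log2(CPM + 1) centred on its mean over the 6 libraries. The nearest to Sox10 was Zbtb2 (RMS 0.277), at 9.53, 10.2 and 9.59 CPM in the controls and 28.6, 4.10 and 4.33 CPM in the mutants, followed by Ttc8 (0.331). The nearest to Mbp were Esco1 (0.137) and Smc6 (0.144), to Erbb3 Fry (0.222) and Eif4enif1 (0.255), and to S100b Uap1l1 (0.183) and Nat9 (0.194). Pmp22, which varied least, had the closest neighbours, Supv3l1 (0.060) and Tmem19 (0.074). None of these neighbours was a gene of the Schwann cell lists, and all profiles share the depth and composition of the same 6 libraries.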

How the data were processed

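RNA of 3 control and 3 mutant samples of the proximal incisor was sequenced as single reads and aligned in Partek Flow. The submitters' processing notes name TopHat2 2.0.8 and mm10, and the counting model and annotation are not given in the sources used here. The authors deposited a filtered table of estimated counts per gene, not normalized, and it was used for every value. A second deposited table of the authors' comparison, with p-value, adjusted p, ratio, fold and group means per gene, was not used.

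Estimated counts were rounded. edgeR 4.0.16 in R 4.3.3 was run with upper-quartile scaling, filterByExpr (minimum count 10, minimum total 15), a model of genotype alone and quasi-likelihood tests (two-sided), adjusted by Benjamini-Hochberg over 15826 genes. The SE was taken from the log2 change and its F statistic. The script was tested on simulated data. Of 19060 symbols, 18637 matched the GENCODE annotation of GRCm38 directly and 214 through a synonym, which gave spans, exon lengths and GC content. No exon of another gene overlaps an exon of the 5 genes.

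The 5 genes and all gene lists were chosen with earlier results of these data known. The text names the 5 genes, Fgfr1, genes of the myelin, transcription factor and neuregulin lists whether or not they moved, the 2 genes nearest in profile to each of the 5, and, from every other list, the 2 markers written first and up to 2 genes in each direction with the smallest p past the study's rule. Myh4, Fabp7, Stmn2, Tac1, Epcam, Amelx and Ambn were named after their values were seen. Results for 2 genes of the myelin list are not reported here. Alternatives were TMM or total-count scaling, DESeq2 1.42.0, limma 3.58.1 voom, no filter, thinned controls, a length and GC correction, protein-coding genes only, a replicate block, each library left out, and another transcript length.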

Additional observations from a re-analysis of the deposited data

How the results depend on the processing

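Mbp and Pmp22 kept their direction under all 16 alternatives and passed the adjusted p in none. Sox10 reversed with limma voom (-1.54), with the replicate block (-2.95) and without mutant 1 (-7.41); over the 6 single libraries left out it ranged from -7.41 to 1.89. S100b ranged from -1.26 to 0.084 and Erbb3 from -0.23 to 0.95, each reversing without mutant 1 (0.084 and -0.23). The 4 Schwann cell and glial genes called by the adjusted p, all lower, became 2 with DESeq2 (Lgi4, lower, and Cd9, higher). With the replicate block 1 was called (Cd9, higher). The number was 0 with no filter, thinned controls, the length and GC correction, protein-coding genes only or without control 2 and mutant 1. With 1 library left out it was 0 to 2, the 2 being without mutant 1. By the study's rule the 6 became 10 with total counts, 12 with no filter and 3 with thinned controls, and 4 to 17 with 1 library left out, 16, 14 and 17 of them without mutant 1, 2 and 3. Over all genes the 1074 called by the adjusted p became 1890 with DESeq2, 229 with no filter, 374 with thinned controls, 142 with the length and GC correction, 54 with protein-coding genes only, 508 with the block, 145 without control 2 and mutant 1, and 76 to 606 with 1 library left out. The 3137 by the study's rule became 4733 with no filter and 2006 to 4732 with 1 library left out. Fewer genes or samples were tested in several of these settings, and otherwise the cause was not tested. Samples share only a number, with correlations of deviations within the pairs of 0.047, 0.009 and 0.055, and the replicate block changed no call among the 5 genes. Per length, the control level moved with the longest coding transcript for Mbp (3.94 CPM per kb) and Pmp22 (54.2). The limit set by depth, 3 counts, is 0.256 to 0.655 CPM in a mutant library and 0.082 to 0.087 CPM in a control library.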
